A study of Mus musculus with 20 samples.

Results

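Txnip, the alpha-arrestins Arrdc1, Arrdc2, Arrdc3 and Arrdc4, and the transcription factors Mlx and Mlxip were described in bulk RNA-seq of murine bone marrow-derived dendritic cells (BMDCs). The 7 genes were chosen by gene symbol with earlier results of these data in view, so their own differences between groups are given as descriptions with errors and without tests. All 7 were among the 24421 genes of the count table, and all 7 were among the 12465 genes kept by the filter on low counts. Bone marrow of 5 wild-type C57BL/6 mice, A to E, was grown for 8 days with 40 ng/mL GM-CSF, and each mouse gave 1 library to each of 4 groups, 20 in all. DMSO Ova cultures received 5% DMSO and ovalbumin. DMSO IC cultures received 5% DMSO and immune complexes (IC) of ovalbumin with IgG, which cross-link Fcγ receptors. IBET Ova and IBET IC cultures received 3.3 µM I-BET151 (iBET), an inhibitor of the BET family of acetyl-lysine readers, in place of the 5% DMSO, with ovalbumin or IC, and the drug itself came from a stock in DMSO. The labels give no DMSO content for these iBET cultures. In every comparison of iBET with DMSO below, the drug and the amount of solvent therefore cannot be told apart. Stimulation lasted 4 hours in every group. The labels place drug and stimulus together, whereas the methods of the study place the drug first. No untreated, unstimulated culture was analysed here, and the sex and age of each mouse are not given in the labels.

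Total counts per library ran from 16447491 to 29245150, with a median of 21764663. Cultures grown with GM-CSF hold a mixture of dendritic cells and macrophage-like cells, and bulk RNA cannot tell fewer cells of a type from less RNA per cell. The dendritic cell markers Itgax and Cd74 were abundant in every group, at means of 1962 to 2285 and 2661 to 3809 CPM, counts scaled to a common library total. Flt3, another of them, averaged 3.03 CPM in DMSO Ova and 0.242 CPM in IBET Ova. The summed CPM of 6 dendritic cell markers ran from 4279 to 6667 in DMSO Ova and from 4562 to 7052 in IBET Ova. That sum was mostly Cd74 and Itgax, whose means were higher with iBET, while other markers went the other way. Ccr7 averaged 461 CPM in DMSO Ova and 331 CPM in IBET Ova, and 546 and 409 CPM with IC. Zbtb46 averaged 24.5 and 20.0 CPM with Ova, and 32.3 and 26.9 CPM with IC. H2-Ab1 was nearly level (289 and 287, 377 and 366 CPM). The summed CPM of 5 macrophage and monocyte markers was lower with the drug, at 1164 to 1655 in DMSO Ova against 757 to 1065 in IBET Ova, and at 1207 to 1713 in DMSO IC against 806 to 1180 in IBET IC. Most of that sum was Csf1r, at means of 1032 and 582 CPM with Ova and 1013 and 631 CPM with IC. Cd14 was also lower (104 and 60.3 with Ova, 116 and 76.4 with IC). Adgre1 (163 and 146, 160 and 160) and Mertk (78.8 and 71.8, 96.2 and 87.2) differed less. Ly6c2 was not lower (30.4 and 30.9, 32.8 and 36.1). None of the 5 genes was at 0, and the part of the lower sum in the iBET comparisons below was not tested. Summed neutrophil markers stayed between 11.8 and 48.7 CPM over all libraries, summed mast cell and erythroid markers stayed at or below 2.73 and 15.6 CPM, and summed B cell and T cell markers at or below 0.408 and 0.163 CPM.

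Alpha-arrestins are adaptor proteins with an arrestin fold. They tie membrane proteins to ubiquitin ligases of the NEDD4 family, which mark the cargo for internalisation. Txnip (thioredoxin-interacting protein) binds thioredoxin and also lowers glucose uptake by promoting the internalisation of glucose transporters, and Arrdc4 shares that second role. Mlx is the obligate partner of Mlxip (MondoA) and of Mlxipl (ChREBP), basic helix-loop-helix factors that sense glucose phosphates and bind carbohydrate response elements. Txnip and Arrdc4 are among the best known genes under such elements.

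The promoters of Txnip and Arrdc4 are printed because their transcripts were the members with the widest differences between groups, and because the known elements of MLX complexes can be searched in them. The sequences are the 250 bases before the RefSeq start site in GRCm38.p6, read 5′ to 3′ in the sense of the gene, at chr3:96557707-96557956 on the plus strand for Txnip and chr7:68749239-68749488 on the minus strand for Arrdc4. Capitals mark each match to CCAAT, to CACGTG, and to a pair of CACGNG in any orientation with 5 bases between them.
Txnip: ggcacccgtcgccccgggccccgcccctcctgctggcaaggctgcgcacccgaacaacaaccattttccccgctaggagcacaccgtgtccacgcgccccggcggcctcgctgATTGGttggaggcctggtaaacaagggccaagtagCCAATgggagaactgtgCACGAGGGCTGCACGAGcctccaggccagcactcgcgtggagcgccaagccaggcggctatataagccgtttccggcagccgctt
Arrdc4: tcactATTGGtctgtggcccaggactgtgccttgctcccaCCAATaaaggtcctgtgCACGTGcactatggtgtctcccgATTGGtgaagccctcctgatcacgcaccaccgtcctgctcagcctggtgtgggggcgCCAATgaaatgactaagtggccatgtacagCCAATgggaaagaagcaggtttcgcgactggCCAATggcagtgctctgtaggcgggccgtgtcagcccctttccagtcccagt

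The Txnip window held 1 such pair of CACGNG, at 85 to 69 bases before the start, and 2 matches to CCAAT, the letters of the NF-Y box. The paired motif, whose spacing follows the textbook carbohydrate response element and was searched after the sequence had been seen, occurred in 24 of 32851 mouse promoter windows of the same length (0.0731%). The Arrdc4 window held 1 CACGTG, from 193 to 188 bases before the start, and 6 matches to CCAAT. The E box CACGTG was found in 6.02% of all windows and at least 4 matches to CCAAT in 0.840%, both strands being searched, and a CACGTG can also serve as a copy in the pair. At least 2 matches to CCAAT were found in 10.1% of all windows. Mlx had 1 CACGTG 40 to 35 bases before its start and 2 matches to CCAAT. Arrdc1, Arrdc2, Arrdc3 and Mlxip had neither CACGTG nor the pair in any of their windows, of which Arrdc3 has 3. Matches to CCAAT numbered 3 in Arrdc2, 2 in Mlxip, at most 1 in each Arrdc3 window and 0 in Arrdc1. A match is a run of letters and not a measured binding site.

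In GRCm38 (GENCODE M21), the Txnip gene lies at chr3:96557957-96561883, Arrdc4 at chr7:68736995-68749241, Arrdc1 at chr2:24925352-24935252, Arrdc2 at chr8:70835129-70839720 and Arrdc3 at chr13:80883384-80896042. Mlx lies at chr11:101087277-101092207 and Mlxip at chr5:123394798-123457932. All 7 are protein-coding genes, and counts were taken over whole genes, so no value belongs to a single exon or transcript. Txnip overlaps the antisense gene Gm15441 and Mlx overlaps Psmc3ip on the other strand. Whether counting used the strand is not given in the sources used here, so reads in the overlaps cannot be told apart. The partners were scarce, with group means of at most 1.97 CPM for Gm15441 and 2.17 CPM for Psmc3ip. Arrdc3 and Mlxip also overlap noncoding genes.

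Txnip was by far the most abundant member. Per kilobase of exon, its mean level was 361 ± 29.4 CPM (SD, n = 5) in DMSO Ova, and it took between 0.0348% and 0.327% of all counts of a library. Arrdc4 came next at 38.1 ± 3.69 CPM per kilobase in DMSO Ova. Mlx (15.6 ± 1.99), Arrdc1 (13.9 ± 2.14) and Mlxip (11.4 ± 2.50 CPM per kilobase) overlapped each other in that group. Arrdc3, at 8.08 ± 4.00 CPM per kilobase, reached 14.6 CPM per kilobase in 1 culture and overlapped Arrdc1, Mlx and Mlxip. Arrdc2 was the lowest of the 7, at 2.26 ± 0.259 CPM per kilobase. The remaining alpha-arrestin Arrdc5 was all but undetected, with 1 count in 1 library over the whole series.

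**Figure D1:**
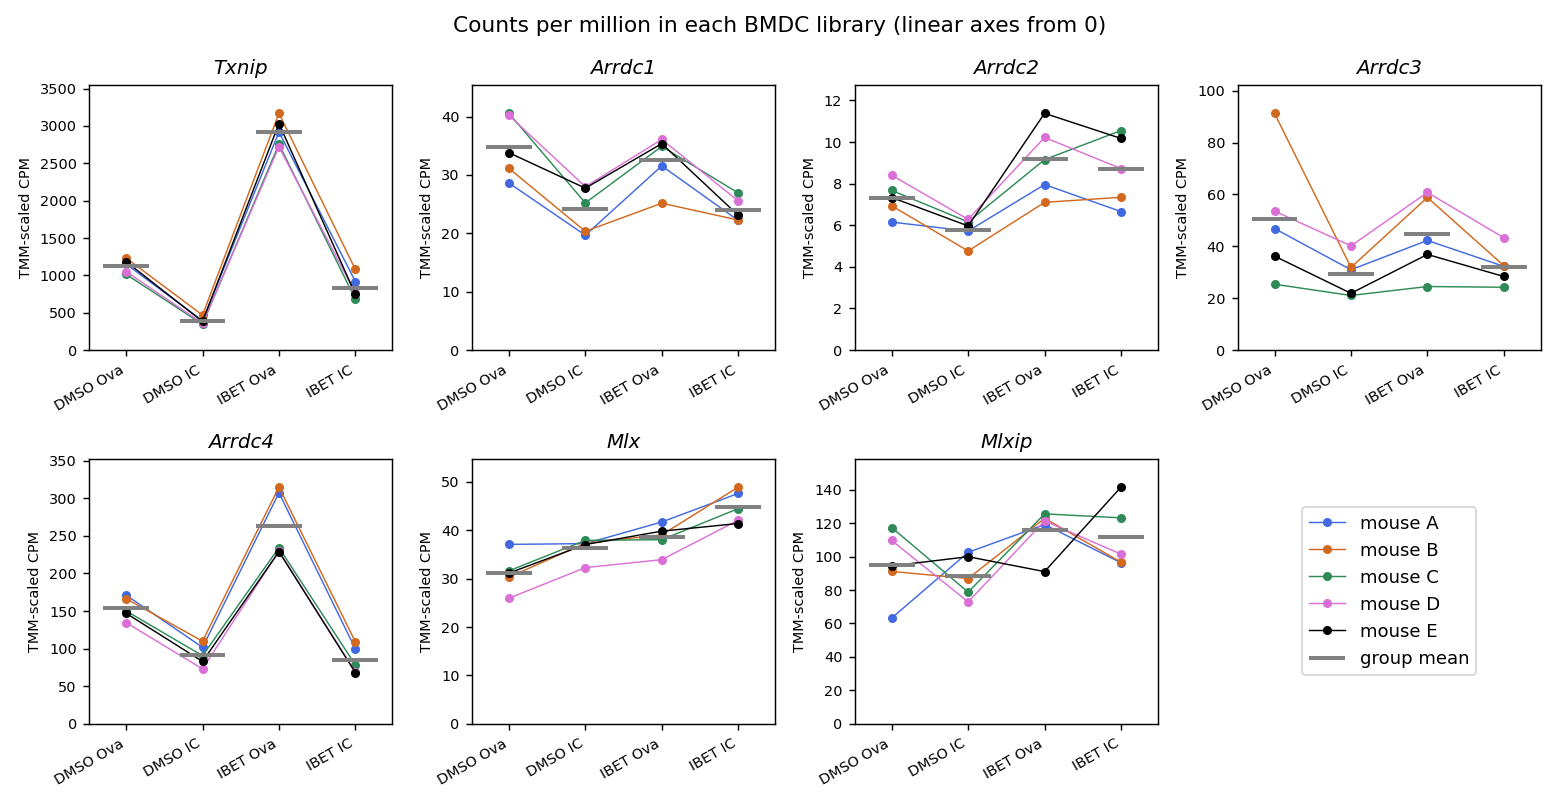
TMM-scaled CPM (vertical axes, linear from 0) of the 7 members in each library, by group, with lines joining the 5 mice and grey bars at the group means. Txnip and Arrdc4 were highest in IBET Ova in every mouse, whereas Mlx was highest in IBET IC in 5 of 5 mice.

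Txnip was lower with IC and higher with iBET, and the 4 groups stood in the order IBET Ova, DMSO Ova, IBET IC, DMSO IC. In mice A to E, its level was 1152, 1233, 1014, 1051 and 1184 CPM in DMSO Ova and 393, 468, 346, 359 and 383 CPM in DMSO IC. With the drug it was 2919, 3169, 2757, 2721 and 3032 CPM in IBET Ova and 917, 1079, 679.8, 761 and 747 CPM in IBET IC. The group ranges of neighbours in this order were apart except for DMSO Ova and IBET IC, where the highest IBET IC library (mouse B) lay among the DMSO Ova libraries. Even there, each mouse had more Txnip in its DMSO Ova culture than in its IBET IC culture.

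On the log2 scale, the difference between IBET Ova and DMSO Ova in Txnip was 1.37 ± 0.11 (edgeR estimate ± SE), a 2.59-fold higher level. Within single mice this difference was nearly constant, from 1.34 to 1.44. With IC the difference between iBET and DMSO was 1.10 ± 0.11, or 2.15-fold, and ran from 0.96 to 1.22 over the mice. IC against Ova gave a difference of -1.53 ± 0.11 in DMSO and -1.80 ± 0.11 in iBET, levels 2.89-fold and 3.49-fold lower. Among the 12465 genes tested, these IC differences ranked 12 and 6 from the lowest. The iBET differences ranked 323 from the highest with Ova and 553 with IC. The iBET difference with IC was smaller than that with Ova in 5 of 5 mice, and IC minus Ova it was -0.27 ± 0.15. These errors come from a fit that leaves the pairing by mouse out. A fit with the mouse as a further factor gave -0.28 ± 0.09 for that last value.

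Arrdc4, like Txnip, was lower with IC, but it was higher with iBET in Ova cultures and not in IC cultures. Its level in mice A to E was 171, 166, 150.2, 135 and 147 CPM in DMSO Ova and 102, 109.9, 90.6, 73.1 and 83.0 CPM in DMSO IC. With the drug it was 307, 315, 234, 229.9 and 229 CPM in IBET Ova, above every other library of the series. In IBET IC it was 99.7, 109.0, 78.2, 68.5 and 68.2 CPM, which overlapped DMSO IC and was lower than DMSO IC in each mouse. Mice A and B had the highest Arrdc4 in all 4 groups.

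The iBET difference in Arrdc4 was 0.77 ± 0.14 log2 units with Ova (1.71-fold higher, 5 of 5 mice) and -0.11 ± 0.14 with IC (lower in 5 of 5 mice). IC against Ova gave -0.75 ± 0.14 in DMSO (1.68-fold lower) and -1.63 ± 0.14 in iBET (3.10-fold lower), and the latter ranked 7 from the lowest of 12465 genes. The former ranked 321 from the lowest, and the iBET difference with Ova ranked 1035 from the highest. The iBET difference with IC minus that with Ova was -0.89 ± 0.20 log2 units (-0.88 ± 0.08 in the fit with the mouse). The within-mouse values of this gap lay between -0.93 and -0.85, with a mean of -0.89 ± 0.04 (SD, n = 5). The ratio of Txnip to Arrdc4, per kilobase of exon, was 9.50 ± 0.778 in DMSO Ova, 5.55 ± 0.616 in DMSO IC, 14.6 ± 1.94 in IBET Ova and 12.9 ± 1.37 in IBET IC (SD, n = 5). The ratio ranges of the 2 IBET groups overlapped, and both lay above those of the 2 DMSO groups.

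**Figure D2:**
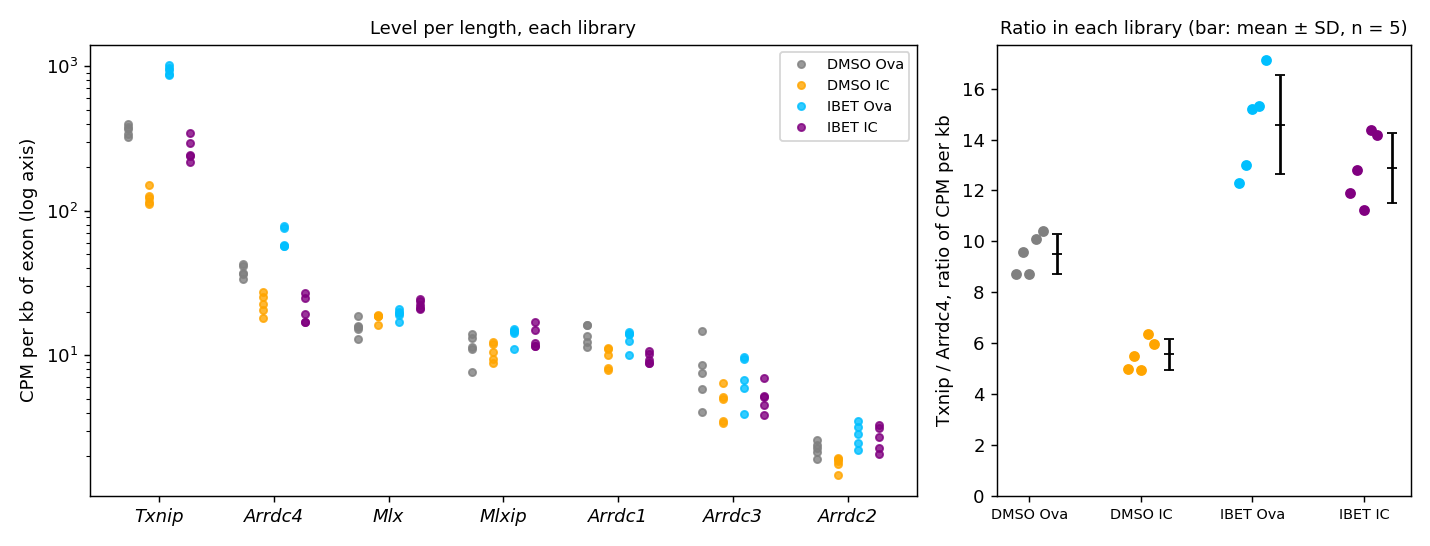
Left, CPM per kilobase of exon of each member in each library (log axis), with a colour per group. Right, the ratio of Txnip to Arrdc4 on that scale in each library, with bars at mean ± SD (n = 5), lowest in DMSO IC at 5.55 and highest in IBET Ova at 14.6.

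The other alpha-arrestins had smaller differences. Arrdc1, which recruits the ESCRT machinery to bud vesicles from the plasma membrane, was lower with IC in 5 of 5 mice, both in DMSO (-0.53 ± 0.12) and in iBET (-0.44 ± 0.12 log2 units). It ran from 28.6 to 40.5 CPM in DMSO Ova and from 19.7 to 28.0 CPM in DMSO IC, without overlap. From 25.2 to 36.1 CPM in IBET Ova and from 22.2 to 26.9 CPM in IBET IC, it did overlap. The iBET difference in Arrdc1 was -0.10 ± 0.12 with Ova and -0.01 ± 0.12 with IC, and the mice differed in its sign.

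Arrdc2 was scarce, between 4.77 and 11.4 CPM in all libraries. It was higher with iBET in 5 of 5 mice with Ova (0.33 ± 0.14) and with IC (0.58 ± 0.14 log2 units), and only with IC were the ranges apart, at 4.77 to 6.29 CPM in DMSO IC and 6.66 to 10.6 CPM in IBET IC. IC against Ova gave -0.34 ± 0.14 in DMSO and -0.08 ± 0.14 in iBET. Its order of group means was IBET Ova, IBET IC, DMSO Ova, DMSO IC, and each pair of neighbours overlapped.

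Arrdc3 varied widely between mice. Its level in mice A to E was 46.8, 91.2, 25.4, 53.6 and 36.2 CPM in DMSO Ova and 31.0, 31.9, 21.05, 40.2 and 21.9 CPM in DMSO IC. It was 42.3, 58.8, 24.5, 60.8 and 36.9 CPM in IBET Ova and 32.3, 32.5, 24.2, 43.3 and 28.4 CPM in IBET IC. Mouse C was the lowest in each group, mouse D the highest in 3 of the 4, and the DMSO Ova culture of mouse B the highest of all. IC cultures had less Arrdc3 than Ova cultures of the same mouse in 5 of 5 mice, with differences of -0.79 ± 0.29 log2 units in DMSO and -0.47 ± 0.29 in iBET, although all group ranges overlapped. The iBET difference was -0.18 ± 0.29 with Ova and 0.14 ± 0.29 with IC.

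Mlx ran in the other direction with IC. In mice A to E, it was 37.1, 30.3, 31.6, 26.0 and 31.1 CPM in DMSO Ova, 37.2, 37.3, 37.9, 32.3 and 37.0 CPM in DMSO IC, 41.7, 39.0, 38.0, 33.9 and 39.8 CPM in IBET Ova, and 47.6, 48.9, 44.4, 42.1 and 41.4 CPM in IBET IC. Both treatments went with slightly more Mlx in every mouse. The iBET difference was 0.30 ± 0.08 log2 units with Ova and 0.30 ± 0.08 with IC, and the IC difference was 0.22 ± 0.08 in DMSO and 0.22 ± 0.08 in iBET. Ranges were apart in 1 of the 4 comparisons, iBET against DMSO with IC.

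Mlxip showed no common pattern over the mice. It was 63.3, 91.1, 117, 109.6 and 94.4 CPM in DMSO Ova, 103, 86.9, 78.7, 72.9 and 99.9 CPM in DMSO IC, 119, 123, 126, 121 and 91.0 CPM in IBET Ova, and 96.3, 96.7, 123, 101 and 142 CPM in IBET IC. The iBET difference was 0.29 ± 0.15 with Ova and 0.34 ± 0.15 with IC, each with 4 of 5 mice higher, and all group ranges overlapped. With Ova it was 0.91 in mouse A but -0.05 in mouse E, and with IC it was -0.09 in mouse A but 0.64 in mouse C. For mice A and B alone, the estimate was 0.65 with Ova and 0.05 with IC. The paralogue Mlxipl was below the filter on low counts. It had at most 1 count in any DMSO library, 3 to 9 counts in the IBET Ova libraries and 2 to 6 counts in the IBET IC libraries.

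**Figure D3:**
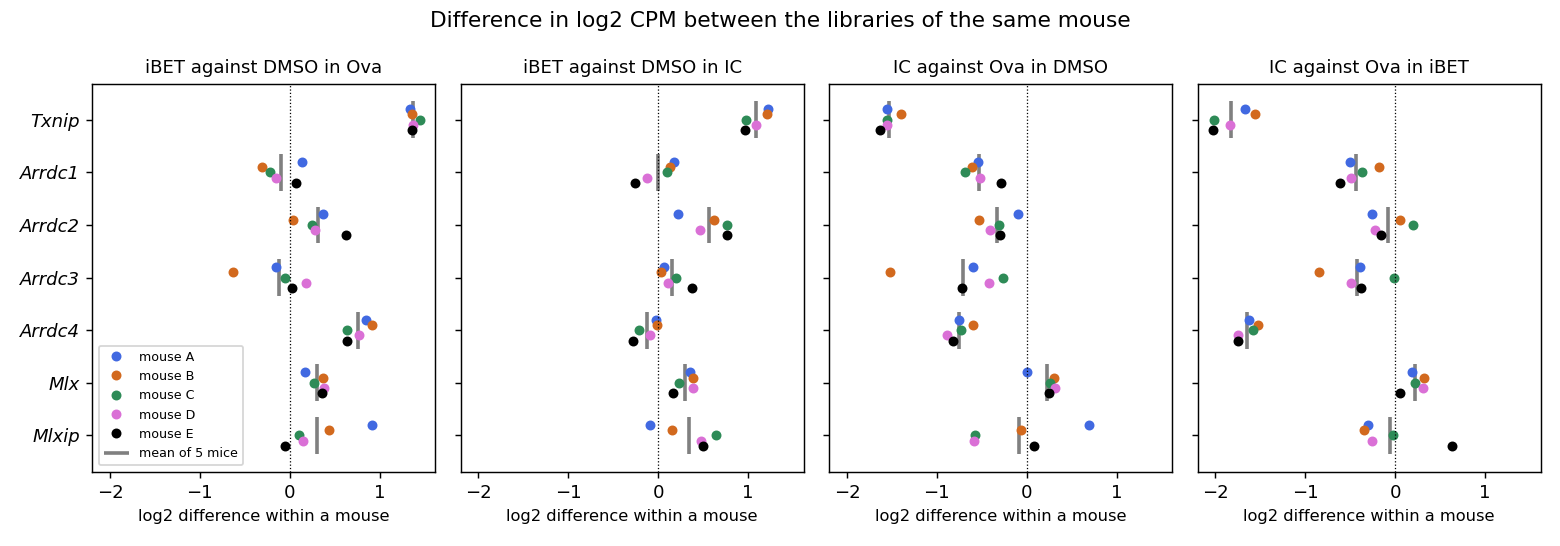
Differences in log2 CPM between libraries of the same mouse (horizontal axes) for the 7 members in the 4 comparisons, with a point per mouse and a grey bar at the mean of the 5. Txnip sits between 0.96 and 1.44 in both iBET comparisons, Arrdc4 is above 0 with Ova and below 0 with IC in every mouse, and Mlxip has points on both sides of 0 in each panel.

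Counting members whose groups did not overlap, 2 of the 7 were apart for iBET against DMSO with Ova, both higher with the drug, where 38.0% of all genes tested were apart in either direction. With IC, 3 of the 7 were apart, all higher with iBET, against 42.8% of all genes. For IC against Ova, 3 members were apart in DMSO and 2 in iBET, all lower with IC, against 12.4% and 10.0% of all genes. The median log2 difference of the 7 members was 0.30 in both iBET comparisons, -0.53 for IC in DMSO and -0.44 for IC in iBET, while the median over all genes tested was between -0.02 and 0.00 in the 4 comparisons. Since the members were chosen with these contrasts known, nothing further is read from those counts.

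The genes whose pattern was most like that of Txnip were sought over the 20 libraries, by Pearson correlation of log2 CPM after removal of each mouse's mean, among 9782 genes with a mean of at least 100 counts. Mir22hg, the host gene of the microRNA miR-22, came first (r = 0.979). It averaged 16.0 CPM in DMSO Ova, 7.67 CPM in DMSO IC, 29.6 CPM in IBET Ova and 15.6 CPM in IBET IC. Cars, a cysteinyl-tRNA synthetase (r = 0.972), Polg, the mitochondrial DNA polymerase (r = 0.969), Mcm7, a subunit of the replicative helicase (r = 0.968), and Irf3, an interferon regulatory factor (r = 0.968), followed. Their differences were smaller than those of Txnip, with iBET estimates for Cars of 0.45 with Ova and 0.43 with IC, and IC estimates for Irf3 of -0.52 in DMSO and -0.55 in iBET. Of the members, Arrdc4 ranked 165 (r = 0.894), Arrdc2 907 (r = 0.747), Arrdc1 1213 (r = 0.694), Arrdc3 1800 (r = 0.613), Mlxip 2895 (r = 0.438) and Mlx 4687 (r = 0.011). The 20 points share 5 animals and 4 groups, so these values describe the libraries and carry no test.

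Genes linked to the alpha-arrestins were tested next, from lists of 69 genes outside the 7 members, of which 54 passed the filter on low counts. For iBET against DMSO with Ova, 16 of the 54 rose and 9 fell (edgeR quasi-likelihood test, Benjamini-Hochberg adjusted p under 0.05), where 27.7% of all genes rose and 28.9% fell. With IC, 13 rose and 13 fell, against 27.1% and 29.0% of all genes. For IC against Ova in DMSO, 11 rose and 9 fell, against 9.59% and 10.7% of all genes. In iBET, 8 rose and 4 fell, against 5.19% and 6.63%. A fit that blocks on the mouse (the replicate block) passed more genes of the lists and of the whole table. In that fit 21 of the 54 rose and 18 fell for iBET with Ova, against 33.5% and 35.2% of all genes, and 20 rose and 17 fell with IC, against 32.6% and 35.4%. For IC it passed 17 rises and 11 falls in DMSO, against 18.3% and 19.8% of all genes, and 16 rises and 10 falls in iBET, against 14.2% and 14.7%. The median log2 fold change of the 54 was between 0.03 and 0.07 in the 4 comparisons. Counts given below for single lists, with or without the block, are to be read against the shares of all genes given here. Genes that passed but lay outside the rule for named genes are given by symbol only, having been picked out after their values were seen.

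The thioredoxin system list, the partner and target side of Txnip, held 14 genes, among them Nlrp3 and Map3k5. With iBET in Ova, 5 of the 14 rose and 2 fell (Txnrd2 and Nlrp3), and in IC 5 rose and 1 fell (Nlrp3). Of all genes, 27.7% rose and 28.9% fell with Ova, and 27.1% and 29.0% with IC. Txn1, the cytosolic thioredoxin that Txnip binds, rose from 183 ± 26.4 to 239 ± 18.3 CPM with Ova (SD, n = 5; log2 fold change 0.39 ± 0.08, edgeR adjusted p = 0.000595) and from 238 ± 14.2 to 318 ± 22.0 CPM with IC (0.42 ± 0.08, edgeR adjusted p = 0.000298). Txnrd3, a thioredoxin reductase, rose by 1.57 ± 0.09 with Ova and 1.37 ± 0.09 with IC, from group means of 5.47 to 16.2 CPM and of 7.26 to 18.7 CPM. Txnrd1, the cytosolic reductase, rose by 0.92 ± 0.09 with Ova and 0.42 ± 0.09 with IC, and Srxn1 (sulfiredoxin) rose by 0.44 ± 0.13 and 0.78 ± 0.13. Prdx3 also rose in both. The mitochondrial reductase Txnrd2 fell by 0.48 ± 0.12 with Ova, and its log2 fold change of -0.23 with IC passed with the replicate block alone (edgeR adjusted p = 0.0993 without and 0.0350 with it).

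Nlrp3, the inflammasome sensor reported to bind Txnip, had the largest change of all partner genes named. Its level in mice A to E was 63.4, 61.2, 69.1, 50.05 and 57.0 CPM in DMSO Ova and 6.95, 6.51, 5.66, 3.92 and 5.90 CPM in IBET Ova. It fell by 3.38 ± 0.19 with Ova (edgeR adjusted p = 1.61e-11) and by 3.04 ± 0.18 with IC (edgeR adjusted p = 5.51e-11), in 5 of 5 mice each. Against the matching DMSO group, Nlrp3 was lower and Txnip higher with iBET, both with Ova and with IC. For IC against Ova its log2 fold change was -0.18 in DMSO and 0.16 in iBET, neither of which passed (edgeR adjusted p = 0.490 and 0.664).

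With IC against Ova in DMSO, where Txnip was lower, 6 of the 14 genes of the thioredoxin system list rose and 2 fell. Of all genes, 9.59% rose and 10.7% fell. Txnrd1 rose by 1.37 ± 0.09 (from 180 ± 25.1 to 463 ± 43.5 CPM, edgeR adjusted p = 8.42e-09), Srxn1 by 1.27 ± 0.13, Txnrd3 by 0.41 ± 0.10 and Txn1 by 0.38 ± 0.08, joined by the peroxiredoxins Prdx1 and Prdx6. Txnrd2 and Map3k5 fell. In iBET, 4 rose, among them Srxn1 (1.61 ± 0.13) and Txnrd1 (0.87 ± 0.09), and Map3k5 fell, against 5.19% and 6.63% of all genes. The replicate block passed 8 rises and 1 fall for IC in iBET, against 14.2% and 14.7% of all genes. For iBET with IC it passed 8 rises and 2 falls, against 32.6% and 35.4%.

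Genes of glucose handling moved in both directions. Of 8 tested genes of uptake and phosphorylation, 2 rose and 2 fell with iBET in Ova, and 1 rose and 2 fell in IC. Of all genes, 27.7% rose and 28.9% fell with Ova, and 27.1% and 29.0% with IC. The counts of this list are therefore not read as a result about glucose handling. Slc2a1 (GLUT1), the transporter whose internalisation Txnip promotes, rose with iBET in Ova from 114 ± 16.7 to 156 ± 30.4 CPM (0.46 ± 0.14, edgeR adjusted p = 0.00791). With IC its difference was 0.17 ± 0.14 (edgeR adjusted p = 0.310, and 0.0432 with the replicate block). Slc2a1 rose with IC in DMSO by 0.57 ± 0.14 (edgeR adjusted p = 0.00648), and its difference in iBET was 0.28 ± 0.14 (edgeR adjusted p = 0.198, and 0.00513 with the block). Slc2a8 (GLUT8) rose with iBET by 0.71 ± 0.10 with Ova and 0.87 ± 0.11 with IC, and fell with IC in DMSO by 0.44 ± 0.11. Slc2a3 (GLUT3), at group means of 4.32 to 6.31 CPM, had iBET differences of -0.47 with Ova and -0.53 with IC, with edgeR adjusted p = 0.0996 and 0.0682, and 0.00106 and 0.000603 with the replicate block. The hexokinases Hk1 and Hk3 fell with iBET in both, Hk3 by 1.01 ± 0.08 with Ova and 0.68 ± 0.08 with IC. Hk2 and Gpi1 rose with IC in DMSO and in iBET. Hk3 rose with IC in iBET by 0.31 ± 0.08 (edgeR adjusted p = 0.0191), and in DMSO its difference was -0.02 ± 0.08. With IC, 3 of the 8 rose and 1 fell in DMSO, against 9.59% and 10.7% of all genes. In iBET, 3 rose and 0 fell, against 5.19% and 6.63%. Blocking on the mouse passed 3 rises and 3 falls of this list for iBET with IC, against 32.6% and 35.4%. For IC in iBET it passed 4 rises and 1 fall, against 14.2% and 14.7%.

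In the MLX and MAX network, 3 of 9 tested genes rose and 1 fell with iBET in Ova, and 2 rose and 1 fell in IC. The shares of all genes were 27.7% and 28.9% with Ova, and 27.1% and 29.0% with IC. Max, the shared partner of the network, had differences of -0.02 and -0.05 with iBET and 0.06 and 0.03 with IC, none of which passed. Mxd1 and Mxd4, which pair with MAX as repressors, rose with iBET by 0.47 ± 0.19 and 0.35 ± 0.13 with Ova and by 0.57 ± 0.19 and 0.53 ± 0.13 with IC. Mnt, another repressor of the network, fell by 0.37 ± 0.12 with Ova and 0.40 ± 0.12 with IC. Mga rose with Ova. Myc averaged 18.4 ± 8.28 CPM in DMSO Ova, 12.8 ± 4.52 in DMSO IC, 31.3 ± 13.0 in IBET Ova and 15.8 ± 7.75 in IBET IC, a spread between mice that was wide in all groups. Its iBET difference with Ova was 0.76 ± 0.36 (5 of 5 mice higher, edgeR adjusted p = 0.0755, and 2.02e-05 with the replicate block). With IC that difference was 0.29 ± 0.36 (edgeR adjusted p = 0.523, and 0.0860 with the block). Myc was lower with IC than with Ova, by 0.52 ± 0.36 in DMSO (edgeR adjusted p = 0.342, and 0.00374 with the block). In iBET it was lower by 0.99 ± 0.36 (5 of 5 mice, edgeR adjusted p = 0.0773, and 7.79e-06 with the block). With IC, Mxd3 fell in DMSO and in iBET, and Mxd4 fell by 0.50 ± 0.13 in DMSO. In the blocked fit, 2 of the 9 rose and 3 fell for IC in DMSO, against 18.3% and 19.8% of all genes. For IC in iBET, 1 rose and 3 fell in that fit, against 14.2% and 14.7%.

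Of the glucose-responsive genes assigned to MLX complexes, 6 outside the members were tested, and Pklr, Rgs16, Fgf21, Gpd1 and G6pc were too low to be tested. The lipogenic genes Acly (ATP-citrate lyase), Acaca (acetyl-CoA carboxylase) and Fasn (fatty acid synthase) rose with iBET both with Ova, by 0.58 ± 0.08, 0.53 ± 0.06 and 0.63 ± 0.10, and with IC, by 0.76 ± 0.08, 0.51 ± 0.06 and 0.47 ± 0.10. Elovl6, a fatty acid elongase, fell with iBET in IC by 0.60 ± 0.16. In the whole list, 3 of the 6 rose and 0 fell with iBET in Ova, and 3 rose and 2 fell in IC. The shares of all genes were 27.7% and 28.9% with Ova, and 27.1% and 29.0% with IC. With the block, 3 of the 6 rose and 2 fell (Scd1 and Elovl6) for iBET with Ova, against 33.5% and 35.2% of all genes. For iBET with IC, 3 rose and 3 fell (Klf10, Scd1 and Elovl6) in that fit, against 32.6% and 35.4%. No gene of this list rose with IC (1 did in DMSO with the replicate block), while 3 fell in DMSO (Klf10, Elovl6 and Acly) and 2 fell in iBET (Klf10 by 2.12 ± 0.15 and Elovl6 by 1.09 ± 0.16). Of all genes, 10.7% fell with IC in DMSO and 6.63% in iBET.

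For Klf10, a zinc-finger repressor, the iBET differences with Ova and with IC were far apart, as they were for Arrdc4. Its level in mice A to E was 118, 129, 85.9, 101 and 96.7 CPM in DMSO Ova and 118, 125, 73.0, 101 and 89.6 CPM in IBET Ova, and these overlapped. It was 52.3, 55.0, 49.7, 44.9 and 46.4 CPM in DMSO IC and 29.5, 26.7, 19.5, 19.9 and 20.8 CPM in IBET IC, which were apart. The iBET difference was -0.06 ± 0.14 with Ova (edgeR adjusted p = 0.722), and Klf10 fell by 1.09 ± 0.15 with IC (edgeR adjusted p = 3.29e-06). The difference between both, -1.02 ± 0.20 and lower in 5 of 5 mice, did not pass over all genes (edgeR adjusted p = 0.126) but did with the replicate block (edgeR adjusted p = 8.73e-05). Over 15 alternative fits that p ran from 5.13e-16 to 0.858, with 5 of the 15 under 0.05.

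None of the 54 partner genes passed for the interaction of iBET with IC in edgeR, where 0.0401% of all genes did. At an unadjusted p under 0.05 there were 4 of the 54, where 4.36% of all genes were under it. With the replicate block 2 of the 54 passed the adjusted threshold, Klf10 and Txnrd1, against 0.818% of all genes. Txnrd1 had an interaction of -0.50 ± 0.13, lower in 5 of 5 mice (edgeR adjusted p = 0.381, and 0.00721 with the block, in a range from 2.95e-05 to 1.00 over the alternatives). DESeq2 without the block called 1 of the 54, against 0.193% of all genes.

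Among the NEDD4-family ligases that alpha-arrestins recruit, 7 of 9 genes were tested. Smurf2 rose with iBET from 40.6 ± 0.700 to 74.2 ± 4.28 CPM with Ova (0.87 ± 0.06, edgeR adjusted p = 1.71e-10) and by 0.98 ± 0.06 with IC. Wwp2 fell from 83.6 ± 3.11 to 48.0 ± 2.56 CPM with Ova (-0.80 ± 0.05, edgeR adjusted p = 1.57e-10) and by 0.82 ± 0.05 with IC. Itch, the ligase reported to ubiquitinate Txnip itself, fell with iBET by 0.42 ± 0.07 with Ova and 0.21 ± 0.07 with IC, and fell with IC in DMSO by 0.37 ± 0.07. Its difference for IC in iBET was -0.16 ± 0.07 (edgeR adjusted p = 0.134, and 0.0338 with the replicate block). Smurf1 fell with iBET in IC by 0.38 ± 0.13 and rose with IC in DMSO by 0.47 ± 0.13. Nedd4 ran from group means of 39.9 to 51.1 CPM with SDs of 14.7 to 23.9, and its differences passed in none of the 4 comparisons. With the replicate block, its iBET difference of 0.30 with IC did (edgeR adjusted p = 0.00660). In that fit 2 of the 7 ligases rose and 4 fell for iBET with Ova, against 33.5% and 35.2% of all genes. For IC in iBET, 2 rose and 1 fell there, against 14.2% and 14.7%. Without the block, 1 of the 7 rose and 2 fell for iBET with Ova, against 27.7% and 28.9% of all genes. For iBET with IC, 1 rose and 3 fell, against 27.1% and 29.0%. For IC in iBET, 0 rose and 0 fell, against 5.19% and 6.63%. These counts are not read as a result about the ligases.

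The beta-arrestins, cousins of the alpha-arrestins that act on G protein-coupled receptors, fell with the drug. Arrb1 fell from 395 ± 50.3 to 183 ± 13.7 CPM with Ova (-1.11 ± 0.08, edgeR adjusted p = 5.36e-10) and by 1.10 ± 0.08 with IC, in 5 of 5 mice each. Arrb2 fell by 0.57 ± 0.07 with Ova and 0.71 ± 0.07 with IC. Sag, the visual arrestin, rose with iBET in Ova by 1.36 ± 0.33, but from a mean of 0.318 to only 0.803 CPM. No beta or visual arrestin passed for IC against Ova, in DMSO or in iBET, where Arrb1 had differences of -0.03 and -0.02, although with the replicate block Sag fell in iBET. Of the vesicle partners of Arrdc1, Tsg101 rose by 0.17 ± 0.06 and Vps4b fell by 0.16 ± 0.06 with iBET in IC, and none of 4 passed in the other comparisons (1 fell for iBET with Ova in the blocked fit).

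Among further cargo genes of alpha-arrestins, Slc11a2, an iron transporter, rose with IC by 0.83 ± 0.10 in DMSO and 0.57 ± 0.10 in iBET, and with iBET in Ova by 0.28 ± 0.10. F2r fell with iBET in IC.

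**Figure D4:**
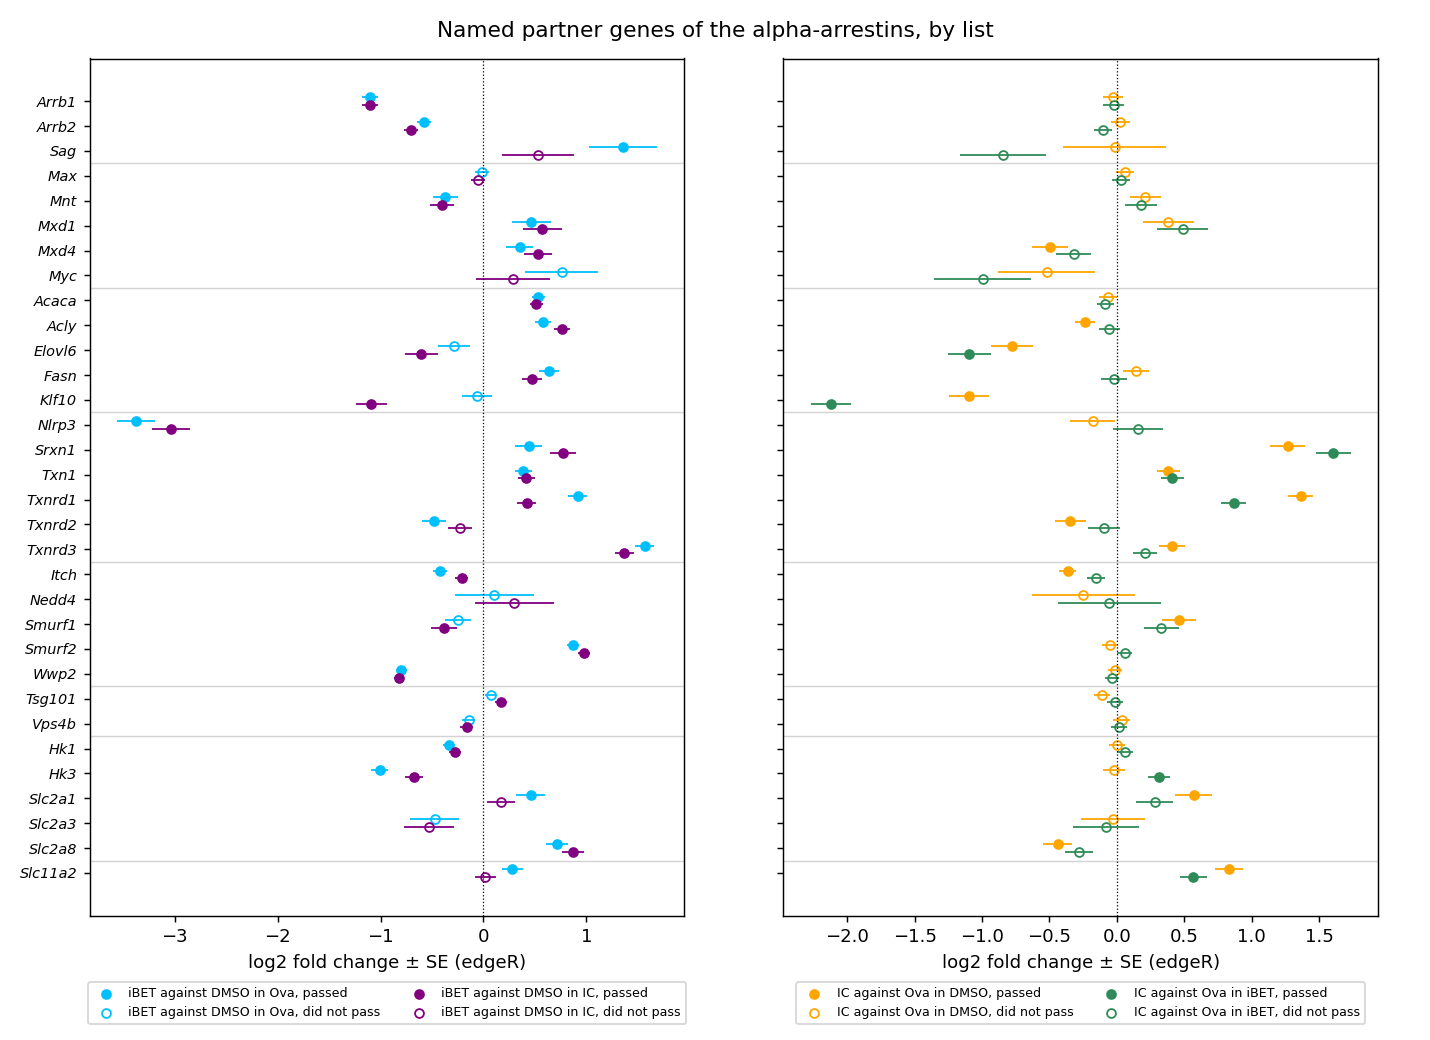
edgeR log2 fold changes with their standard errors (horizontal axes) of the named partner genes, grouped by list between grey lines. Filled points passed an adjusted p under 0.05 over all genes and open points did not. Nlrp3 lies farthest left with iBET, Srxn1 and Txnrd1 lie farthest right with IC, and Klf10 lies farthest left with IC.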

How the data were processed

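Total RNA of BMDCs was made into libraries with a pico-input kit and sequenced by a commercial provider. Per the labels the cells were sorted into lysis buffer, whereas the methods of the study describe lysis in culture. Per the labels, HISAT2, mm10 and featureCounts were used, and the strand setting of counting is not given in the sources used here. The deposited table holds raw counts per gene symbol for 20 libraries, and a second deposited table holds the signal of counts divided by size factors by the authors, which equalled the counts rescaled per library and entered only 1 alternative.

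Genes were filtered with filterByExpr, scaled by TMM and fitted with edgeR 4.0.16 (R 4.3.3) by a quasi-likelihood test with group as the only factor over all 20 libraries. That test returns no standard error. Each edgeR SE was derived as the absolute log2 fold change divided by the square root of the F statistic. Adjusted p-values are Benjamini-Hochberg values over 12465 genes. CPM are TMM-scaled and log2 CPM use a prior count of 2. The script was tested on simulated data with no mouse effect and with changes in IBET Ova only. That run therefore cannot speak to how the mouse is handled. Total counts per library (16447491 to 29245150) set the counting precision. Members, lists and tests were chosen with earlier results of these data known. Named partner genes were a preset set plus, per list, up to 3 called genes that rose and 3 that fell with iBET in all 5 mice, and the 5 genes most like Txnip, and 1 preset gene is not reported here. Libraries of the same mouse, as labelled, deviated together (mean correlation 0.524 over 30 pairs, lowest 0.307, other mice -0.156), so the mouse is a replicate block in an alternative fit. Other alternatives used DESeq2 1.42.0, limma 3.58.1 and sva 3.50.0. Promoters are RefSeq, found for 7 of 7 members, and lengths are GENCODE exon unions.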

Additional observations from a re-analysis of the deposited data

Results flagged for a closer look

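Arrdc4 was higher with iBET in every mouse with Ova and lower with iBET in every mouse with IC, a gap of -0.89 log2 units between both effects. The difference with IC was small, at -0.11 ± 0.14 and only -0.03 in mouse A and -0.01 in mouse B, with overlapping groups. No test of the gap is given, because the gene was chosen with the contrast known. Single cultures also lay far from the other 4 of their group, by the gap to the nearest of them as a share of the group's range, in 9 of 180 groups of 5 examined, where chance gives about 1 in 20. For the members these were Mlx in the DMSO IC culture of mouse D (32.3 CPM, next 37.0) and Mlxip in the IBET Ova culture of mouse E (91.0 CPM, next 119). For partner genes they were Acaca in DMSO IC of mouse A (93.1 CPM, next 80.4), Srxn1 in DMSO Ova of mouse A (113 CPM, next 83.8) and Arrb2 in IBET Ova of mouse A (104 CPM, next 111). The others were Itch in IBET IC of mouse D (193 CPM, next 179), Smurf2 in IBET IC of mouse C (69.0 CPM, next 77.5), and Txnrd2 of mouse E in DMSO IC (9.42 CPM, next 8.24) and in IBET IC (8.40 CPM, next 6.99).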

How the results depend on the processing

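Over the alternatives run, 443 refitted log2 fold changes of members stayed within the spread between mice and 5 moved. The sign differed from the reported one in some alternatives for Arrdc1 (iBET with IC), Arrdc3 (both iBET comparisons) and Mlxip (both IC comparisons), and for no named partner gene in a comparison in which it had passed. All 5 that moved came from fitting mice A and B only, a set known from earlier results: Txnip for IC in iBET was -1.60, and Mlxip was 0.65 for iBET with Ova, 0.046 for iBET with IC, 0.29 for IC in DMSO and -0.32 for IC in iBET. The numbers of partner genes called moved with how the mouse was handled and with which mice were fitted. For iBET with Ova, 39 were called with the replicate block in edgeR, 38 with the replicate block in DESeq2 and 39 with surrogate variables, in place of 25. For IC in iBET, the replicate block gave 26 in edgeR and 27 in DESeq2, surrogate variables gave 22 and mice A and B only gave 7, in place of 12. For IC in DMSO, mice A and B only gave 9 and the replicate block 28, in place of 20. For the interaction, the replicate block gave 2 in edgeR and 3 in DESeq2, and DESeq2 without the block, surrogate variables and mice C, D and E only gave 1 each, in place of 0. Leaving out 1 mouse at a time gave 21 to 26 calls for iBET with Ova, 22 to 26 for iBET with IC, 15 to 19 for IC in DMSO, 8 to 11 for IC in iBET and 0 for the interaction. The causes of these shifts were not tested. Arrdc5, Mlxipl, Sag, Gm15441 and Psmc3ip had few counts in every library, which limits their precision. Counts also went down to 28 for Elovl6 in IBET IC, 55 for Slc2a3 in IBET Ova and 87 for Nlrp3 in both IBET groups. For Txnrd3 they went down to 94 in DMSO Ova, and for Arrdc2 to 105 in DMSO IC. Precision is limited there too.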
